A study of Mus musculus with 28 samples.

Results

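The data described here compare mouse bone marrow-derived macrophages (BMDMs) that had engulfed apoptotic regulatory T (Treg) cells with BMDMs that had engulfed apoptotic conventional CD4+ T (Tconv) cells, both kept in interferon-γ (IFN-γ). They comprised 8 of the 28 RNA-seq libraries of the study, 4 Treg-phagocytic and 4 Tconv-phagocytic, chosen by their labels with both antibody dyes pooled in each group. All macrophages were wild-type and were co-cultured for 48 h with T cells that ATP and NAD+ had driven into apoptosis; the IFN-γ dose was 50 ng/mL. The T cells carried a fluorescent anti-CD4 antibody, and macrophages were sorted by whether they had taken up a Treg cell, a Tconv cell or neither. The background came from 4 libraries of IFN-γ macrophages of the same kind that had engulfed no T cell, and 8 libraries of Treg-phagocytic and Tconv-phagocytic macrophages in interleukin-10 (IL-10, also 50 ng/mL). The labels do not say whether replicates came from separate mice or cultures, so the p-values measure the spread between these libraries, which may be technical. Sorting by dye uptake separates macrophages by the label they carry, and the labels do not tell how many cells were sorted or how much T cell RNA came with them.

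The dye was labelled in 2 ways that disagreed. In the sample titles the Treg libraries Ax647-1 and Ax647-2 carried the dye Ax647 and the others BV421, while the library names of the same 4 samples gave the opposite dye; for the Tconv libraries both labels agreed. Libraries are named here by the title, and per-library values follow the order Ax647-1, Ax647-2, BV421-1, BV421-2. If the library names are right, the 2 Treg dyes are exchanged and the group labels stand.

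As background, IFN-γ binds the receptor formed by Ifngr1 and Ifngr2, whose kinases Jak1 and Jak2 pass the signal on towards the nucleus. There it acts through GAS elements and induces Irf1, Ciita and Nlrc5, which then drive antigen presentation, while the guanylate-binding proteins (GBPs) and immunity-related GTPases (IRGs) attack vacuoles that hold pathogens. Macrophages that clear apoptotic cells recognise phosphatidylserine through receptors such as Mertk, digest the corpse in lysosomes and handle the lipid and iron it brings. Treg cells hold immune responses down and are defined by the transcription factor Foxp3.

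The files held TPM, a level per transcript length whose sum is the same in each library. Read depth, estimated from the smallest steps of the values, was 1.36 to 2.48 M reads in the Treg libraries and 2.62 to 3.09 M in the Tconv libraries, so that 1 read on a transcript of 1 kb was worth 0.32 to 0.573 TPM and 0.264 to 0.307 TPM. The Treg libraries were thus the shallower group, with Ax647-2 the shallowest, and 14148 to 15159 genes had a value above 0 in them against 15662 to 16295 in the Tconv libraries. The first principal component held 31.2% of the variance and separated the groups, with scores of 21.0 to 30.2 for Treg and -35.4 to -16.2 for Tconv. Macrophage identity was clear in all 8 libraries, with the lysozyme gene Lyz2 between 14003 and 18393 TPM. The part of depth in the results below was not tested beyond leaving out libraries.

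Of the 11980 genes that reached 1 TPM in 4 or more of the 8 libraries, 1684 (14.1%) differed between Treg-phagocytic and Tconv-phagocytic macrophages at a Benjamini-Hochberg adjusted p below 0.05 (limma on log2 of scaled TPM + 1). Of these, 652 (5.44% of the genes tested) were higher in the Treg group and 1032 (8.61%) were lower. The lower genes also moved further: 335 fell by at least 1 on the log2 scale and 23 rose by as much, and 505 of the 652 rises were of 0.5 or less. The 4 Treg values lay all above or all below the 4 Tconv values for 2316 genes (19.3%). All log2 differences below are Treg minus Tconv on the log2(scaled TPM + 1) scale, which understates the change of low genes, and folds are taken from them.

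The split into rises and falls depended on the scaling between libraries. With TPM left unscaled, 272 genes were called higher and 1350 lower, and the median log2 difference of all tested genes moved from 0.045 to -0.051. Lists with several small rises are therefore given below with the count found without scaling. Leaving out 1 library gave between 920 and 1476 calls; the count moved by over 1.5 times without Tconv BV421-2 (920), Tconv Ax647-1 (971) or Tconv Ax647-2 (1038). Within the libraries of 1 dye by the titles, with 2 against 2, 82 genes were called for Ax647 and 3 for BV421, and a model over all 28 libraries called 4201.

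**Figure D1:**
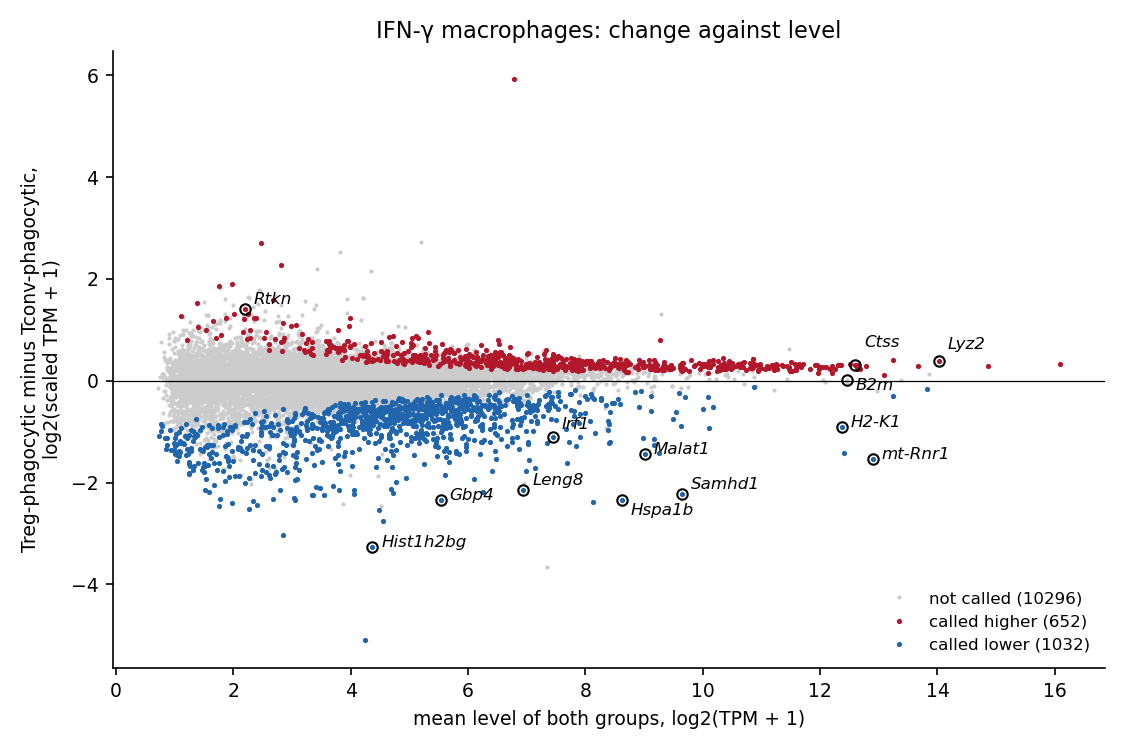
Each point is 1 of the 11980 tested genes, with the mean level of both groups as log2(TPM + 1) on the x axis and its log2 difference, Treg minus Tconv, on the y axis; coloured points are the 652 genes called higher and the 1032 called lower. The falls reach further from 0 than the rises, and the labelled genes Hspa1b, Gbp4, Samhd1 and Leng8 lie below -2.

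Irf1, Nlrc5 and Ciita, which IFN-γ is known to induce, were lower after Treg uptake, and Irf8, another interferon-induced factor, was not called (149 ± 6 and 174 ± 10 TPM, -0.11, adjusted p = 0.2394). Irf1, which switches on further interferon targets, measured 88.5, 115, 96.9 and 119 TPM in the Treg libraries and 245, 236, 200 and 295 TPM in the Tconv libraries. The groups did not overlap, and Irf1 fell by 1.10 on the log2 scale (SE 0.14, adjusted p = 0.001029). Nlrc5, the transactivator of MHC class I genes, had 24.5, 27.7, 19.5 and 25.8 TPM against 75.8, 61.7, 59.6 and 85.4 TPM, and fell by 1.39 (SE 0.15). Ciita, the transactivator of MHC class II genes, was low in both groups, at 1.82, 3.40, 4.83 and 2.97 TPM against 8.52, 10.3, 8.93 and 10.8 TPM, and fell by 1.27 (SE 0.23, adjusted p = 0.006465). Stat3, which relays IL-6 and IL-10 signals, fell too, from 79.2 ± 8.6 to 39.2 ± 3.2 TPM (SD, n = 4 each).

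The receptor and its kinases did not pass the test. Ifngr1 had 91.5 ± 6.9 TPM in the Treg and 88.3 ± 3.8 TPM in the Tconv libraries, with a log2 difference of 0.16 (SE 0.09, adjusted p = 0.2737). Ifngr2 differed by 0.20, Jak1 by 0.05 and Jak2 by -0.26, and all of these ranges overlapped. The feedback inhibitor Socs1 stood at 4.84 ± 1.54 and 4.78 ± 1.04 TPM. In all, 5 of the 16 tested genes of this list were called lower and none higher, with a median of -0.11 against 0.045 for all tested genes.

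**Figure D2:**
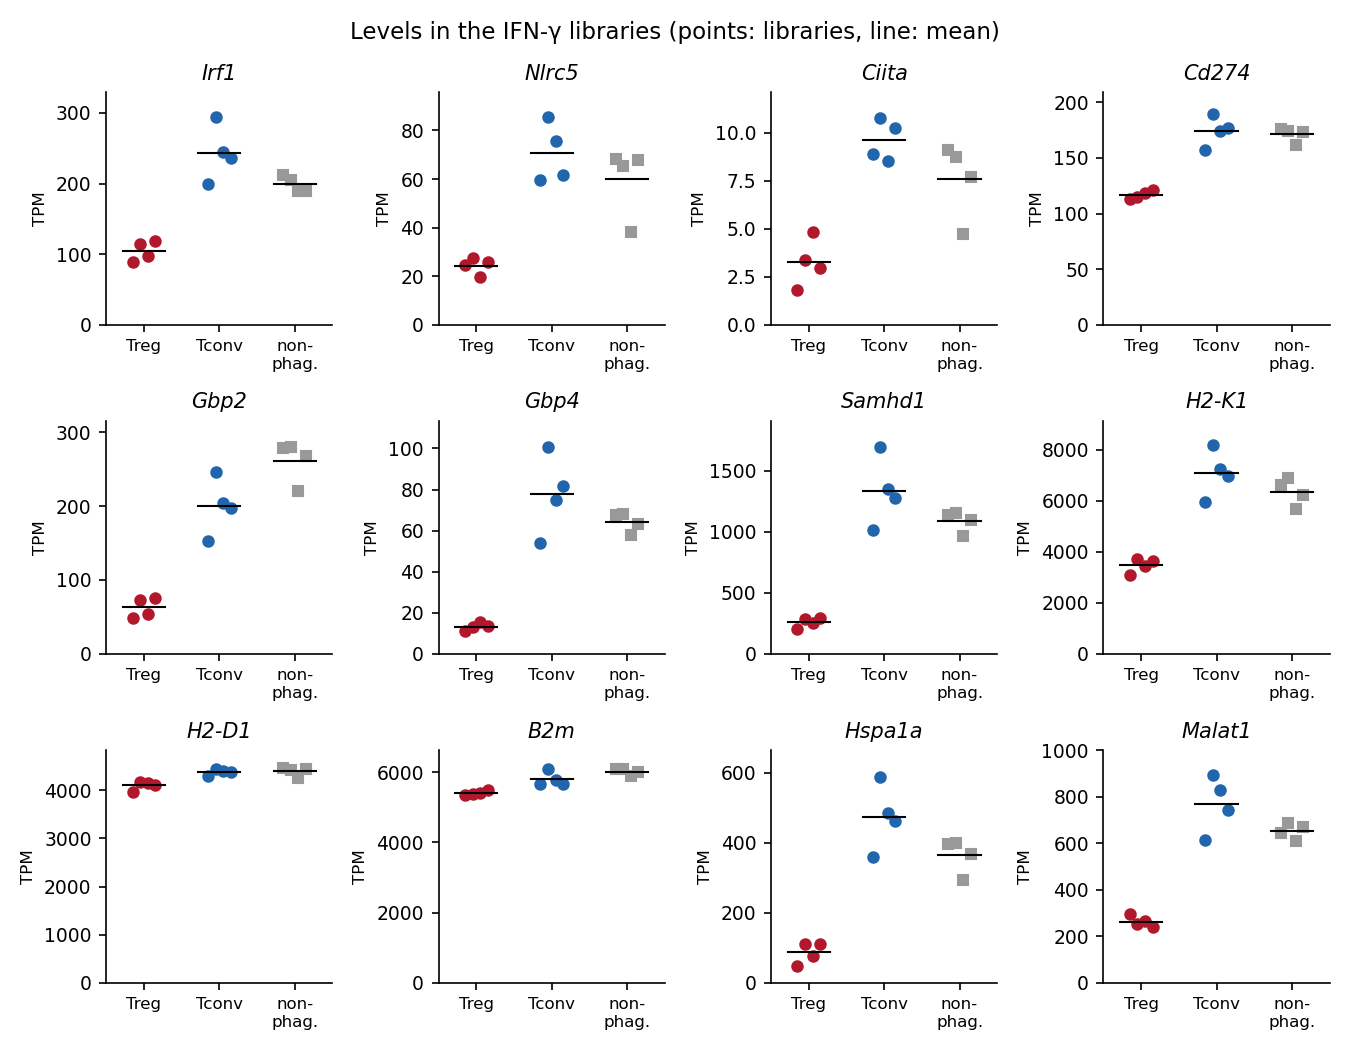
Points are the TPM of each of the 4 Treg-phagocytic, 4 Tconv-phagocytic and 4 non-phagocytic IFN-γ libraries on a linear axis from 0, with 1 panel per gene and a line at the group mean. For Irf1, Nlrc5, Ciita, Cd274, Gbp2, Gbp4, Samhd1, H2-K1, Hspa1a and Malat1 every Treg value lies below every Tconv value, and this also holds, by a much smaller margin, for the TPM of H2-D1 and B2m, whose scaled values were not called.

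Of the 10 tested GBPs, 6 were called lower (Gbp2, Gbp2b, Gbp4, Gbp6, Gbp8 and Gbp9) and none higher, and the median difference was -0.88. Gbp4, at chr5:105115767-105139586 (GRCm38) on the minus strand, changed most: 11.1, 13.0, 15.3 and 13.6 TPM in the Treg libraries stood against 74.9, 81.6, 53.9 and 101 TPM in the Tconv libraries. This was a fall of 2.33 (SE 0.18, adjusted p = 0.000156), 5.04-fold lower, with the lowest Tconv library still far above the highest Treg library. Gbp2, at chr3:142620602-142638008 on the plus strand, had 47.9, 73.6, 54.1 and 75.3 TPM against 204, 197, 153 and 246 TPM, and fell by 1.56 (SE 0.18, adjusted p = 0.0007897). Without T cell uptake Gbp2 stood at 262 TPM and Gbp4 at 64.2 TPM. Gbp4 and Gbp8 overlap in the annotation and the family is made of close copies, so the division of reads among members is uncertain. Gbp3, Gbp5, Gbp7 and Gbp10 were not called, with differences of -0.34, -0.48, -0.17 and -0.67.

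Among the IRGs 3 of 7 were called lower, with a median of -0.53. Irgm1, a regulator of the family that guards host membranes, fell by 0.90 (SE 0.11, adjusted p = 0.001073), from 68.1 ± 10.4 to 33.0 ± 1.3 TPM. Iigp1 fell by 0.95 at 9.67 ± 1.43 and 4.18 ± 0.83 TPM, and Igtp by 0.54, from 36.5 ± 6.5 to 22.9 ± 3.1 TPM (adjusted p = 0.03153). Irgm2, Tgtp1, Tgtp2 and Ifi47 were not called, with differences between -0.53 and -0.08.

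As background, IFN-γ acts on many genes through GAS motifs, and interferon regulatory factors bind ISRE motifs, so the start regions of these genes were searched for both. RefSeq windows of 300 bases (250 before to 50 after the start, GRCm38.p6) were available for 5 of the 10 GBPs and 6 of the 7 IRGs. They were searched on both strands for a GAS motif (TTCNNNGAA) and an interferon-stimulated response element (ISRE, GAAANNGAAA); the 2 patterns can overlap. A GAS match was present in 2 of 5 GBPs and 4 of 6 IRGs, and an ISRE match in 5 of 5 and 5 of 6, against 8.23% and 4.11% of the 8895 tested genes with a window and 9.55% and 3.99% of all 27018 genes with one. The 6 windows below are printed 5′ to 3′ on the gene's strand, with every GAS and ISRE match in capitals; a match on the other strand appears as its reverse complement. For Irf1 the first of 2 windows is shown, since the second held no match. Gbp2, Igtp, Irf1 and Samhd1 were called lower; Gbp7 and Irgm2 are from the same families and were not called.
Gbp2 (chr3:142620413-142620712, plus strand): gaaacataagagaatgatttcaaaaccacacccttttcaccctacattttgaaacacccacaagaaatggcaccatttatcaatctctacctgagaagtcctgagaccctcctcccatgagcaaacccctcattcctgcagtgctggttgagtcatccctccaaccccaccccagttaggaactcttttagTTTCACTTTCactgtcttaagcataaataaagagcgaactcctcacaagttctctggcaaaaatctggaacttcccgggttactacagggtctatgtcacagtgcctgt
Igtp (chr11:58199306-58199605, plus strand): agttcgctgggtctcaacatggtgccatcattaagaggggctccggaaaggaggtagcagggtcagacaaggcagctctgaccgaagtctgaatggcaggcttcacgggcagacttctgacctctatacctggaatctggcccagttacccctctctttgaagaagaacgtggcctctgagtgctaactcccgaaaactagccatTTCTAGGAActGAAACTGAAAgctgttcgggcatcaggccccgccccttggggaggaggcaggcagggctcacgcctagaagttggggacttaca
Irf1 (chr11:53769764-53770063, plus strand): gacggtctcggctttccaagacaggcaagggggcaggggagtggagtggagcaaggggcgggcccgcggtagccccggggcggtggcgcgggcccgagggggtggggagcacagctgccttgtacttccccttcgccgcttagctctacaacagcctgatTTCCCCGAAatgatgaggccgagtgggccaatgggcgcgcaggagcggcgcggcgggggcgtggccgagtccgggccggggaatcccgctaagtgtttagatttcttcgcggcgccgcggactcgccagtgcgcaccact
Samhd1 (chr2:157135047-157135346, minus strand): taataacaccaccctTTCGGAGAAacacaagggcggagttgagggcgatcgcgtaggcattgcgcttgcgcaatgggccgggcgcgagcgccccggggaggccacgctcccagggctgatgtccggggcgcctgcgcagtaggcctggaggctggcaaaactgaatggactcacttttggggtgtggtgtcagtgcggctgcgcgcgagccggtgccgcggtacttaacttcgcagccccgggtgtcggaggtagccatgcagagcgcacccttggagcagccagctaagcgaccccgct
Gbp7 (chr3:142530086-142530385, plus strand): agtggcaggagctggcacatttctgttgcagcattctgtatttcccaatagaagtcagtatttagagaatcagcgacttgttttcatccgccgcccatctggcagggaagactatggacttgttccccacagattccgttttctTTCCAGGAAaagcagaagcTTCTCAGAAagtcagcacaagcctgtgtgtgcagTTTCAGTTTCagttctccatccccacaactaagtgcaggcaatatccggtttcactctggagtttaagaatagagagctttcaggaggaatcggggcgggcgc
Irgm2 (chr11:58214727-58215026, plus strand): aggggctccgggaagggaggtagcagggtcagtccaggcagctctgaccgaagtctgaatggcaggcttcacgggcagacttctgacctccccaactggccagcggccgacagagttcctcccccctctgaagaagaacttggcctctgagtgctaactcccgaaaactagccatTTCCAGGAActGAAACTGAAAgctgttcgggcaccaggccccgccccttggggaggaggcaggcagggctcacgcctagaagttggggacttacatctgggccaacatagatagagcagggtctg
In Igtp the GAS match began 45 bases before the start and the ISRE match 34 before it; in Irgm2 they began 75 and 64 bases before it. Gbp7 held 2 GAS matches (106 and 87 bases before the start) and 1 ISRE match (53 before it), while Gbp2 held 1 ISRE match (59 before it). Irf1 and Samhd1 each held 1 GAS match, 90 and 235 bases before the start. Matches were thus found in windows of called and of uncalled genes alike; they are letters in a window and say nothing of binding in these cells. Among the MHC class II genes called lower, 0 of 6 windows held either motif, which says only that these letters are not in those windows.

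MHC class II genes were moderately lower. H2-Ab1 and H2-Eb1, chains of the peptide-presenting dimer, fell by 0.51 and 0.56: H2-Ab1 from 1403 ± 150 to 910.5 ± 100.8 TPM and H2-Eb1 from 1257 ± 154 to 788 ± 93 TPM. H2-Aa fell by 0.33, and the peptide-exchange chains H2-DMa and H2-DMb1 by 0.58 and 0.38. The invariant chain Cd74 was not called, at 2155 ± 156 and 2623 ± 144 TPM (-0.18). Ctss, the protease that trims the invariant chain, went the other way and rose by 0.31, from 5775 ± 231 to 6641 ± 154 TPM. Counting Ciita, Rfx5 and H2-Oa, 8 of 15 tested genes were called lower and 1 higher, with a median of -0.38.

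Among MHC class I and immunoproteasome genes, 9 of 20 were called lower and none higher (median -0.20). H2-K1, a classical class I heavy chain, measured 3077, 3717, 3448 and 3626 TPM in the Treg libraries and 7252, 6969, 5961 and 8189 TPM in the Tconv libraries. It fell by 0.92 (SE 0.10, adjusted p = 0.0004884), with the groups well apart. H2-D1, the other classical heavy chain, had 4101 ± 90 and 4378 ± 64 TPM and a scaled difference of 0.02, and B2m, the light chain both share, had 5408 ± 69 and 5805 ± 198 TPM and a difference of 0.01; the TPM of the groups did not overlap for either gene, and both differences turn negative without scaling. H2-Q4 fell by 0.85, H2-T23 by 0.33, and Tap1, a chain of the peptide transporter, by 0.48, from 153 ± 10 to 102 ± 4 TPM. The immunoproteasome subunits Psmb8 (-0.07), Psmb9 (-0.40) and Psmb10 (0.25) were not called. Class I genes of the H2-Q and H2-T groups are close copies, and how reads were divided among them is uncertain.

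Genes of the type I interferon programme split. Stat2, a transcription factor of that pathway, fell by 1.59 (SE 0.14, adjusted p = 0.000263), from 76.8 ± 11.7 to 23.03 ± 3.48 TPM. Dhx58, a cytosolic RNA sensor, fell by 1.19 (54.8 ± 7.6 to 21.7 ± 1.7 TPM), and Oas3, Usp18 and Trim30a by 0.79, 0.84 and 0.59. Most members were not called: Isg15 stood at 65.1 ± 9.8 and 64.1 ± 13.1 TPM, Ifit3 at 32.3 ± 2.5 and 39.0 ± 2.6 TPM, and Irf7 at 99.9 ± 11.9 and 109 ± 11 TPM. Rtp4 and Ifitm3 rose by 0.51 and 0.26. The counts were 5 of 25 lower and 2 higher, beside 8.61% and 5.44% of all tested genes. Without scaling they were 6 lower and none higher.

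Cytokine and checkpoint genes of activated macrophages mostly did not pass the test, while chemokine genes were called more often. Of all tested genes 14.1% were called in either direction. By limma 0 of 13 tested cytokine genes were called (3 had an unadjusted p below 0.05), Tnf (17.6 ± 1.5 and 18.0 ± 1.8 TPM) and Il1b (4.39 ± 1.40 and 4.00 ± 0.95 TPM) among them, and Nos2 and Il6 were too low to be tested. Of 12 tested chemokine genes 4 were called higher and 1 lower. Ccl5, which recruits T cells, fell by 0.35, from 437 ± 42 to 317 ± 22 TPM. Ccl3, Ccl6, Ccl9 and Cxcl2 rose by 0.42, 0.33, 0.29 and 0.75; 1 of these 4 rises was called without scaling. The IFN-γ-induced chemokines Cxcl9 (14.5 ± 11.6 and 23.4 ± 2.5 TPM) and Cxcl10 (4.50 ± 2.28 and 5.32 ± 2.09 TPM) overlapped between the groups. Cd274, which encodes the checkpoint ligand PD-L1, had 113, 115, 118 and 122 TPM against 174, 177, 157 and 190 TPM and fell by 0.46 (SE 0.07, adjusted p = 0.003024). Lilrb4a, an inhibitory receptor, fell by 0.43, and the other 15 tested checkpoint and costimulatory genes, Cd86 and Cd40 among them, were not called.

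By a rule that took the 10 largest called falls with no overlap and at least 5 TPM in the higher group, leaving out predicted-gene and clone names, the genes were Gbp4, Hspa1a, Hspa1b, Hist1h2bg, Hist2h2be, Samhd1, Zmiz1os1, Tspoap1, Leng8 and Sbsn. Samhd1, a dNTP-degrading enzyme that restricts viruses, at chr2:157097533-157135265 on the minus strand, had 206, 289, 256 and 296 TPM in the Treg libraries and 1354, 1276, 1014 and 1694 TPM in the Tconv libraries. It fell by 2.23 (SE 0.16, adjusted p = 0.0001377), 4.68-fold lower, and stood at 1089 TPM in the IFN-γ macrophages that had engulfed no T cell. Leng8 fell by 2.15 (35.7 to 44.7 TPM against 162 to 262 TPM). Stx2, a membrane fusion protein among the 5 largest falls at 100 TPM or more, fell by 1.93 (19.4 to 33.0 against 86.2 to 132 TPM). Tspoap1, Sbsn and the antisense transcript Zmiz1os1 fell by 2.21, 2.11 and 2.23. In each of these 6 genes, Samhd1 included, every Treg value was below every Tconv value, which the rule itself required. No source used here says whether counting used strand, so Zmiz1os1 and reads of its partner Zmiz1 may not be separable.

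Of 14 tested heat shock genes 7 were called lower and none higher, with a median of -0.57. Hspa1a, an inducible chaperone of the Hsp70 family, had 48.0, 111, 77.0 and 112 TPM in the Treg libraries and 485, 462, 358 and 589 TPM in the Tconv libraries. Its fall was 2.38 (SE 0.26, adjusted p = 0.0006304), 5.20-fold, and its near-identical neighbour Hspa1b fell by 2.34, so reads of the pair may have been shared. The constitutive Hspa8 fell by 0.62 (930 ± 83 to 558 ± 37 TPM), the co-chaperone Dnaja1 by 0.85 and Hsph1 by 1.06. The mitochondrial chaperones Hspd1 (0.06) and Hspe1 (0.11) and the regulator Hsf1 (-0.18) were not called.

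Of 5 tested genes in the list of abundant long non-coding RNAs, 2 were called lower, Malat1 and Neat1, with a list median of 0.05. Malat1, a long non-coding RNA of nuclear speckles, had 294, 251, 265 and 239 TPM in the Treg libraries and 829, 741, 614 and 894 TPM in the Tconv libraries, a fall of 1.43 (SE 0.10, adjusted p = 0.0001106). Neat1, the scaffold of paraspeckles, fell by 1.12, from 713 ± 111 to 302 ± 29 TPM. The snoRNA host transcripts Gas5, Snhg1 and Snhg12, which are spliced and reach the cytoplasm, were not called (0.22, 0.05 and 0.07). The histone gene Hist1h2bg fell by 3.26 (1.32 to 4.80 TPM against 28.02 to 47.1 TPM) and Hist2h2be by 2.14, while Hist1h2bc and Hist1h1c stood at 84.9 ± 9.4 against 89.8 ± 10.2 TPM and 319 ± 12 against 289 ± 19 TPM. Of 19 tested histone genes 3 were called lower and 1, Hist1h1c, higher, or 3 and none without scaling. The shares among all tested genes were 8.61% lower and 5.44% higher.

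Many genes of the unspliced and intronic classes of the annotation were called lower. Of 128 tested genes of the class TEC (mostly unspliced single-exon models that await experimental support), 54 were called lower, with a median of -0.87, and of 23 sense-intronic genes 12 were called lower, with a median of -1.11. The summed level of both classes was 924 ± 38 TPM in the Treg libraries and 1559 ± 244 TPM in the Tconv libraries, and 1480 TPM without uptake. Among protein-coding genes, 678 of 6665 (10.2%) with an annotated retained-intron transcript were called lower and 355 (5.33%) higher. Of the 4141 without such a transcript, 178 (4.30%) were called lower and 265 (6.40%) higher. The fall in the summed TEC and sense-intronic level had an exact two-sided permutation p of 0.02857, the smallest that 4 against 4 can give, in a family of 3 such tests with the same adjusted p.

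**Figure D3:**
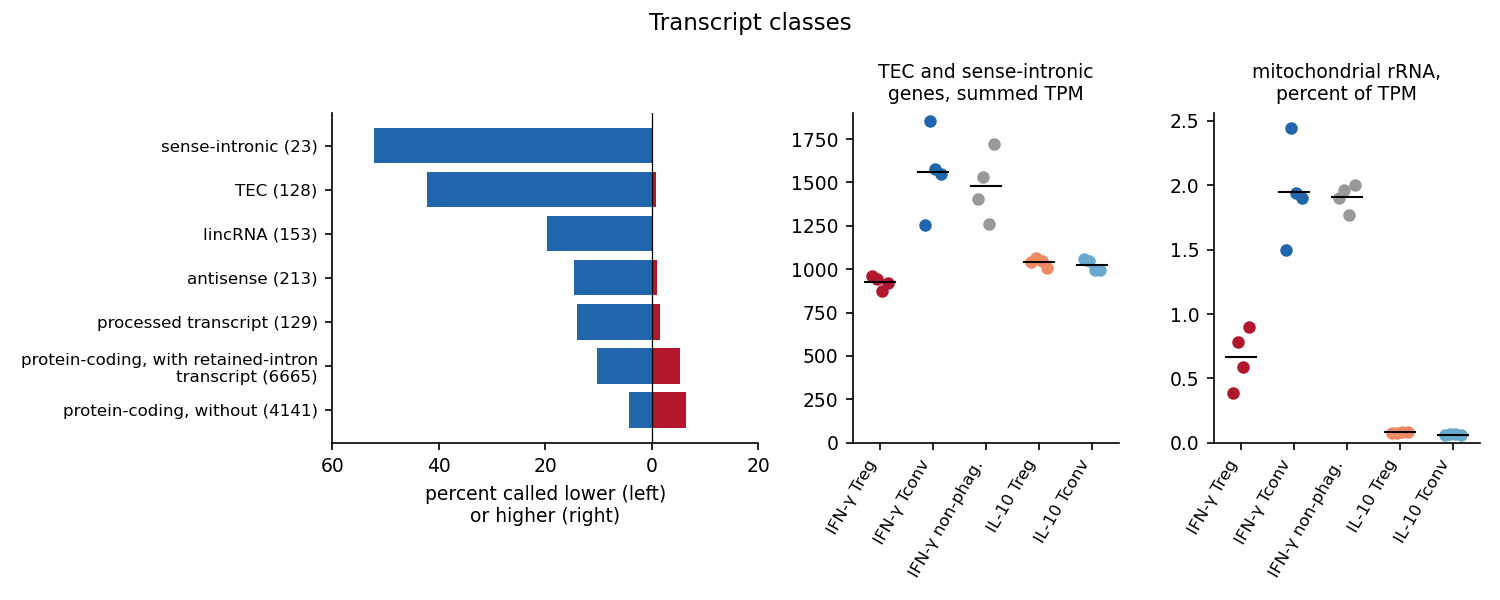
In the left panel bars give the percentage of tested genes called lower (to the left) and higher (to the right) in each annotation class, with the number tested in parentheses and protein-coding genes split by whether an annotated transcript retains an intron. The other panels give the summed TPM of TEC and sense-intronic genes and the mitochondrial ribosomal RNA as a percentage of TPM in each library, with a line at the group mean; in both, the 4 IFN-γ Treg libraries lie below the 4 IFN-γ Tconv libraries.

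Mitochondrial RNAs moved with the same groups. Mitochondrially encoded genes took 6.05% ± 0.20 of TPM in the Treg and 7.95% ± 0.43 in the Tconv libraries, and the ribosomal RNAs among them 0.664% ± 0.226 and 1.95% ± 0.39 (exact permutation p = 0.02857 for each, two-sided). mt-Rnr2, the large ribosomal RNA, had 1708, 3340, 2531 and 3856 TPM against 8020, 7691, 6131 and 10152 TPM, and fell by 1.42 (SE 0.25, adjusted p = 0.004801). mt-Rnr1, the small one, fell by 1.54. Of 15 tested mitochondrial genes 6 were called lower and none higher: both ribosomal RNAs and the mRNAs mt-Nd4l, mt-Co1, mt-Atp8 and mt-Nd4, which fell by 0.92, 0.31, 0.17 and 0.13. The other 9 mRNAs, among them mt-Nd1 (0.03), mt-Cytb (-0.03) and mt-Co2 (0.14), were not called. The part of these shifts in the falls of the other gene groups was not tested.

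The IFN-γ response genes were split by the same annotation. In the 5 lists of IFN-γ signalling, GBPs, IRGs, MHC class II and MHC class I as a whole, 23 of 41 genes with an annotated retained-intron transcript were called lower and none higher (median -0.48), Irf1, Nlrc5, Gbp4 and H2-K1 among them. Of the 25 genes without one, 6 were called lower (Gbp2, Gbp2b, Irgm1, Igtp, Iigp1 and H2-Q6) and 1 higher, with a median of -0.11. The summed level of these lists was 27520 to 29450 TPM in the Treg libraries and 33160 to 37730 TPM in the Tconv libraries, with no overlap, and 35480 TPM on average without uptake. Most of this sum was MHC: in the Treg libraries the class I list held 15140 to 16340 TPM and class II 11460 to 12370 TPM. The GBPs held 126 to 148 TPM there. The class II list includes Ctss, which rose.

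Macrophage identity genes were slightly higher after Treg uptake in the scaled data. Of 20 tested, 10 were called higher and none lower (median 0.23), and all 20 differences were positive; without scaling, 4 were called higher and none lower. Lyz2, the most abundant member, rose, with 18393, 17960, 18232 and 18039 TPM against 14907, 15198, 16091 and 14003 TPM, 1.30-fold higher (log2 0.38, SE 0.05, adjusted p = 0.001072). The galectin gene Lgals3 rose by 0.29 (4417 ± 80 to 5015 ± 136 TPM), Cd14, the endotoxin co-receptor, by 0.32, and the myeloid transcription factor gene Cebpa by 0.38. Summed over the list, the Treg libraries held 32310 to 32630 TPM and the Tconv libraries 26860 to 29720 TPM. In bulk libraries, fewer cells of a type and less RNA per cell cannot be told apart, and TPM are shares, so a lower share of some RNAs goes with a higher share of the rest.

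Lysosomal genes were called higher more often than lower. Of 45 tested, 14 were called higher and 1 lower (median 0.15), or 8 and 3 without scaling. Of all tested genes 5.44% were called higher and 8.61% lower. In the highest of 5 classes by level these shares were 19.9% and 13.2%, with a median of 0.14. The proteases Ctsd and Ctsl rose by 0.31 (4819 ± 277 to 5516 ± 102 TPM) and 0.39 (1262 ± 60 to 1535 ± 50 TPM). Cd63, a membrane protein of late endosomes, had 1744, 1578, 1720 and 1666 TPM against 1495, 1462, 1476 and 1326 TPM and rose by 0.33 (SE 0.05, adjusted p = 0.002527). The 1 member called lower was Mcoln1, the lysosomal calcium channel, which fell by 0.98 from 172 ± 34 to 80.6 ± 17.8 TPM. The regulators Tfeb (0.15), Tfe3 (-0.18) and Mitf (-0.13) were not called. An E-box (CACGTG), part of the site that Tfeb binds, was found in 11 of 36 lysosomal windows, 30.6% against 12.1% of tested genes. It was found in 4 of the 12 windows of the members called higher and also in that of Mcoln1. In the other whole lists the share ran from 0%, as in the GBPs, to 31.2% in the list of p53 targets and apoptosis genes. The E-box thus did not set the lysosomal list apart.

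Receptors and bridging proteins for apoptotic cells changed in both directions. Cd36, Mfge8, Itgav, Anxa1, Cd300a and C1qc rose by 0.26 to 0.58, with Itgav, the αv integrin that binds Mfge8, at 27.7 ± 3.0 against 19.7 ± 2.4 TPM. Mertk, the receptor kinase that drives engulfment, fell by 0.55 (SE 0.13, adjusted p = 0.02146), with 16.8, 13.1, 15.5 and 15.6 TPM against 25.3, 25.8, 19.6 and 27.97 TPM. Cd300lf, another phosphatidylserine receptor, fell by 1.45. Axl, Stab1 and C1qb were not called, at -0.04, 0.08 and 0.03. The list counted 6 higher and 2 lower of 21, or 3 and 2 without scaling. Among all tested genes 5.44% were called higher and 8.61% lower, so the falls of this list were about as frequent as in all genes.

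Genes against oxidative stress and for iron storage had the highest median among the lists of macrophage function, at 0.31, with 8 of 21 called higher and none lower (6 and none without scaling). Fth1, the ferritin heavy chain, rose by 0.32, from 64340 ± 2562 to 74530 ± 755 TPM, and Ftl1, the light chain, by 0.30. Catalase (Cat) rose by 0.47, Gpx1 by 0.38, Sod1 by 0.34 and Prdx1 by 0.31. Hmox1, the haem-degrading enzyme, was not called, at 109 ± 11 and 125 ± 11 TPM.

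Lipid handling moved little. Apoe, the macrophages' lipid carrier, rose by 0.29 (12200 ± 296 to 13780 ± 218 TPM) and Plin2, a lipid droplet protein, by 0.33, of which Apoe alone was also called without scaling, while the cholesterol exporters Abca1 (0.36) and Abcg1 (-0.06) were not called. In cholesterol synthesis 1 of 20 genes was called, Insig1, lower by 0.39. Autophagy genes divided: Nbr1, Wipi2, Atg16l1, Atg4b and Atg14 fell by 1.16, 1.12, 1.05, 0.49 and 0.48, and Atg10, Gabarap and Sqstm1 rose by 0.59, 0.22 and 0.20, the rises not being called without scaling. An annotated retained-intron transcript is present in 18 of the 26 tested autophagy genes, among them all 5 that fell and 2 of the 3 that rose. In glycolysis, Aldoa, Pgk1, Pgam1, Eno1 and Ldha rose by 0.23 to 0.27, while the enzymes Gpi1 and Pfkfb3 fell by 0.33 and 0.50 and Hif1a, the hypoxia factor, by 0.67. The list counted 5 higher and 3 lower of 19, or 1 and 3 without scaling. Its 18 symbols matched 19 tested gene entries, so a symbol with more than 1 entry is counted more than once. Among all tested genes 5.44% were called higher and 8.61% lower.

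Genes linked to alternative activation included Trem2, a lipid-sensing receptor, which rose by 0.35 (902 ± 45 to 1066 ± 35 TPM), and the mannose receptor Mrc1, which rose by 0.39 (21.4 ± 0.7 to 26.2 ± 2.2 TPM). Il10rb, a chain of the IL-10 receptor, rose by 0.43, and Vegfa, the vascular growth factor, fell by 0.59. Arg1 and Retnla were listed at 0 in both groups. Here 6 of 14 were called higher and 1 lower, or 3 and 2 without scaling.

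**Figure D4:**
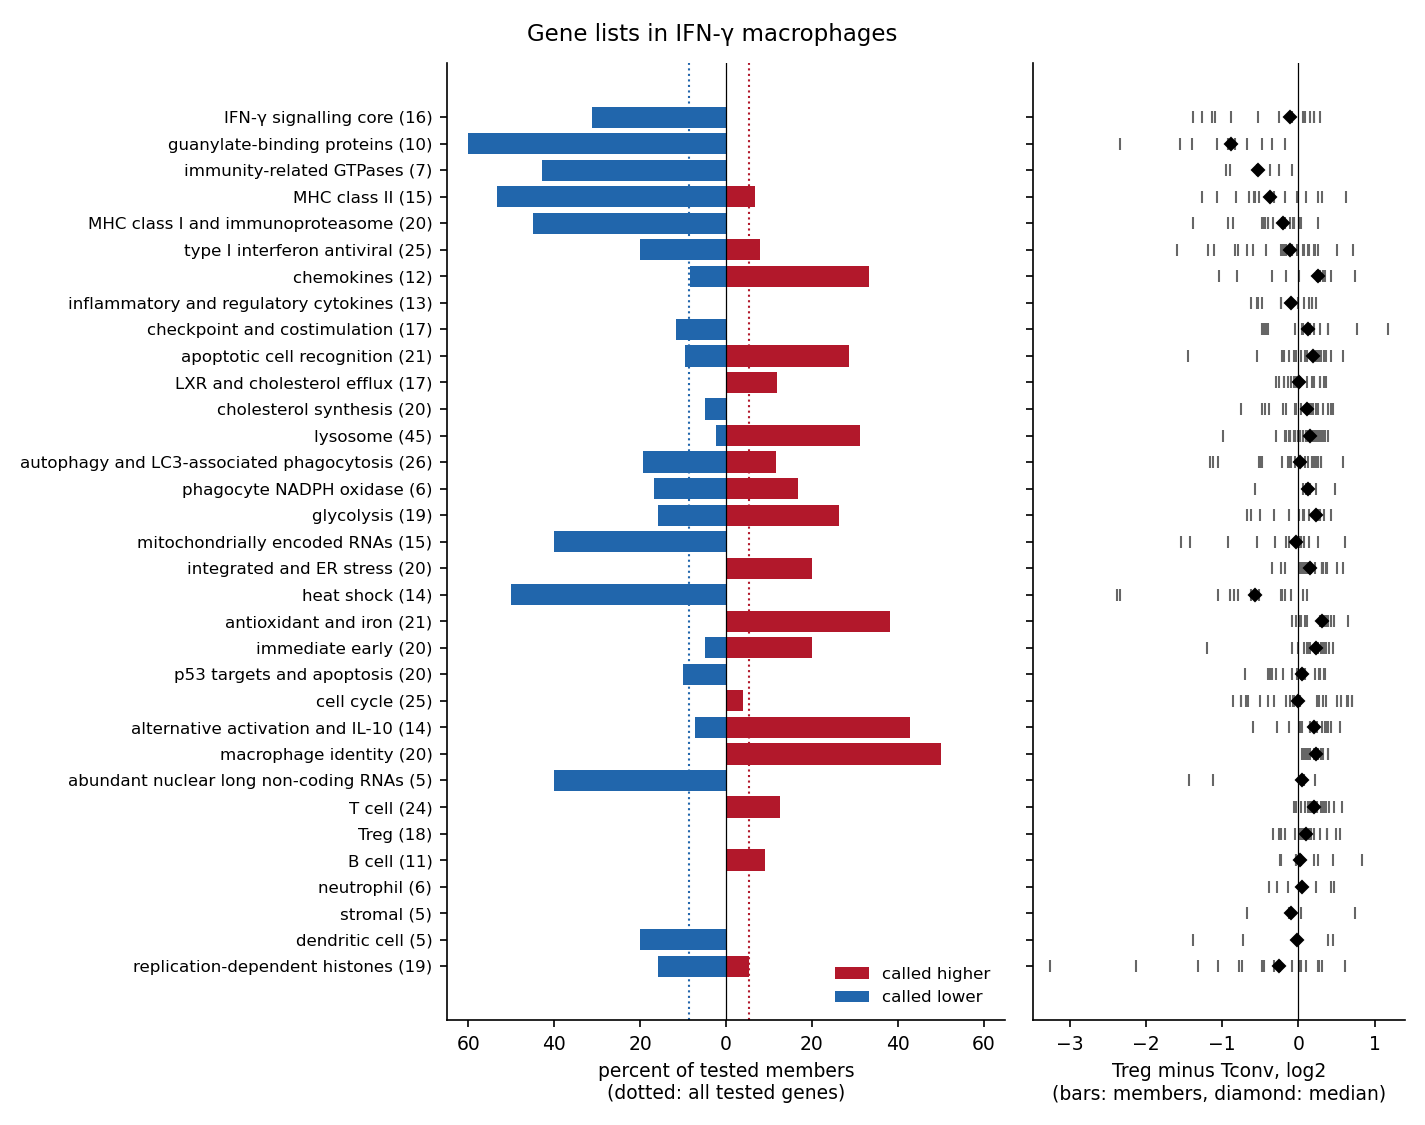
Each row is 1 gene list, with the number of tested members in parentheses. Bars on the left give the percentage of members called lower and higher, with dotted lines at the 8.61% and 5.44% of all tested genes, and marks on the right give the log2 difference of each member with a diamond at the median; the GBP, heat shock and IRG medians lie at -0.88, -0.57 and -0.53 and the macrophage and antioxidant ones at 0.23 and 0.31.

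The 10 largest called rises by the same rule were in Rtkn, Asb1, Oplah, Fabp7, Cd320, Orc2, Gpr174, Fkbp7, Anapc16 and Timm17b, with differences of 0.87 to 1.41. Most of these genes were of low level, while Anapc16 stood at 43.0 ± 10.4 against 24.6 ± 5.2 TPM. Rtkn, which encodes the signalling protein rhotekin, had 3.61, 8.13, 3.65 and 6.96 TPM against 0.67, 1.37, 1.77 and 2.52 TPM. Fabp7, a fatty acid-binding protein, had 6.45, 6.64, 10.8 and 10.6 TPM against 2.26, 5.41, 4.21 and 2.94 TPM. Values of the size of Rtkn and Fabp7 rest on few reads at this depth. Among genes with at least 100 TPM, Snd1, an RNA-binding nuclease, rose by 0.81 (90.0 to 140 TPM against 60.7 to 85.2 TPM), and Ier3ip1, Snrpe, Vkorc1 and Syncrip by 0.72, 0.60, 0.57 and 0.56. Snrpe encodes a core protein of the spliceosomal snRNPs and Syncrip an RNA-binding protein of the cytoplasm.

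T cell transcripts were present in both groups, as in macrophages sorted as free of T cells. The summed level of the T cell list was 915 to 1401 TPM in the Treg and 929 to 1127 TPM in the Tconv libraries, and 943 TPM on average in the non-phagocytic ones. Cd3e had 33.5, 22.2, 43.5 and 14.7 TPM against 25.5, 29.6, 18.0 and 20.2 TPM, with no separation (0.30, adjusted p = 0.5439). Cd28, Il7r and Ms4a4b rose by 0.40, 0.34 and 0.46, and the other 21 of 24 tested genes were not called. Among all tested genes 14.1% were called in either direction and 5.44% higher. Without scaling no T cell gene was called. Cd8a, which CD4+ cells lack, was too low to be tested, at 0.30 and 0.32 TPM.

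No Treg-defining gene passed the test. Foxp3 had 13.4, 10.5, 14.4 and 11.5 TPM in the Treg libraries and 15.3, 12.8, 17.6 and 10.1 TPM in the Tconv libraries, a difference of -0.04 (SE 0.18, adjusted p = 0.9157). Il2ra, Ctla4 and Ikzf2 differed by 0.16, -0.18 and 0.04, and by limma 0 of the 18 tested Treg genes were called (2 had an unadjusted p below 0.05). The share called among all tested genes was 14.1%, at which lists as short as this one and those below would hold few calls. The summed level without Capg, which macrophages express, was 350 ± 35 and 324 ± 34 TPM, against 286 TPM in non-phagocytic macrophages. This sum still held Entpd1, which was not called. Entpd1 alone had 141 ± 37 and 116 ± 25 TPM, against 88.9 TPM in non-phagocytic macrophages, so the order of the sums is no measure of Treg RNA. The Foxp3 values thus give no check of which T cell was engulfed. Markers of other cells were present at low summed levels. The B cell list summed to 134.5 to 185 TPM in the Treg and 131.5 to 166 TPM in the Tconv libraries, led by Igkc (48.1 ± 12.6 and 53.9 ± 15.3 TPM), and 1 of 11 tested members was called, Cd79a, which rose by 0.83 at 4.84 ± 0.81 and 2.53 ± 0.75 TPM. The neutrophil list summed to 85.5 to 97.9 and 73.1 to 88.2 TPM, most of it from Csf3r and S100a9, with Ly6g listed at 0 in both groups and 0 of 6 tested members called by limma (2 had an unadjusted p below 0.05). The erythroid list summed to 19.9 to 27.2 and 15.4 to 31.5 TPM, with Slc4a1 listed at 0 in both groups; Hbb-bs, a haemoglobin chain, fell by 0.94 without overlap, at 7.44 ± 1.60 and 16.3 ± 2.5 TPM, and Hba-a2 was not called (13.3 ± 3.3 and 7.36 ± 5.18 TPM). In the dendritic cell list, which summed to 42.3 to 60.7 and 57.2 to 70.3 TPM, 1 of 5 was called, Clec9a, which fell by 1.38 at 1.12 ± 0.90 and 4.80 ± 2.23 TPM. Their part in the results was not tested.

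The same contrast in IL-10 gave a background for the IFN-γ differences. The difference between the contrasts, fitted over 16 libraries with a variance weight for each group, passed the test for 1614 of 12918 genes (12.5%), 493 with a more positive and 1121 with a more negative Treg-minus-Tconv change in IFN-γ. The median change of the GBPs was -0.93 in IFN-γ and 0.22 in IL-10 in this fit, and the difference was called for 6 of 10, all negative. For Gbp4 the difference was -2.60 (adjusted p = 0.00016), but its IL-10 levels were only 2.24 and 1.78 TPM. Heat shock genes had medians of -0.61 and 0.01, with 7 of 14 differences called, and the IFN-γ signalling list -0.15 and 0.00, with 5 of 16 called.

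Genes whose IL-10 levels were higher than those of Gbp4 are given side by side. Samhd1 stood at 203 TPM after Treg and 194 TPM after Tconv uptake in IL-10, and its difference between polarizations was -2.33 (adjusted p = 4.204e-07). H2-K1 stood at 3270 and 3381 TPM (difference -0.91), Irf1 at 68.3 and 68.3 TPM (-1.14) and Malat1 at 414 and 425 TPM (-1.43). The macrophage list had medians of 0.19 in IFN-γ and -0.04 in IL-10, with 9 of 20 differences called, all positive. For lysosomal genes the medians were 0.11 and 0.00, with 12 differences called positive and 1 negative of 45. The IL-10 libraries were deeper, at 6.70 to 12.3 M reads, and their summed TEC and sense-intronic level was 1042 TPM after Treg and 1024 TPM after Tconv uptake. Mitochondrial ribosomal RNA took 0.0794% and 0.0634% of TPM in them, against 0.664% and 1.95% in IFN-γ. The part of these library differences in the comparison of polarizations was not tested. T cell genes had medians of 0.17 and 0.47, with 0 of 24 differences called by limma and 3 at an unadjusted p below 0.05.

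**Figure D5:**
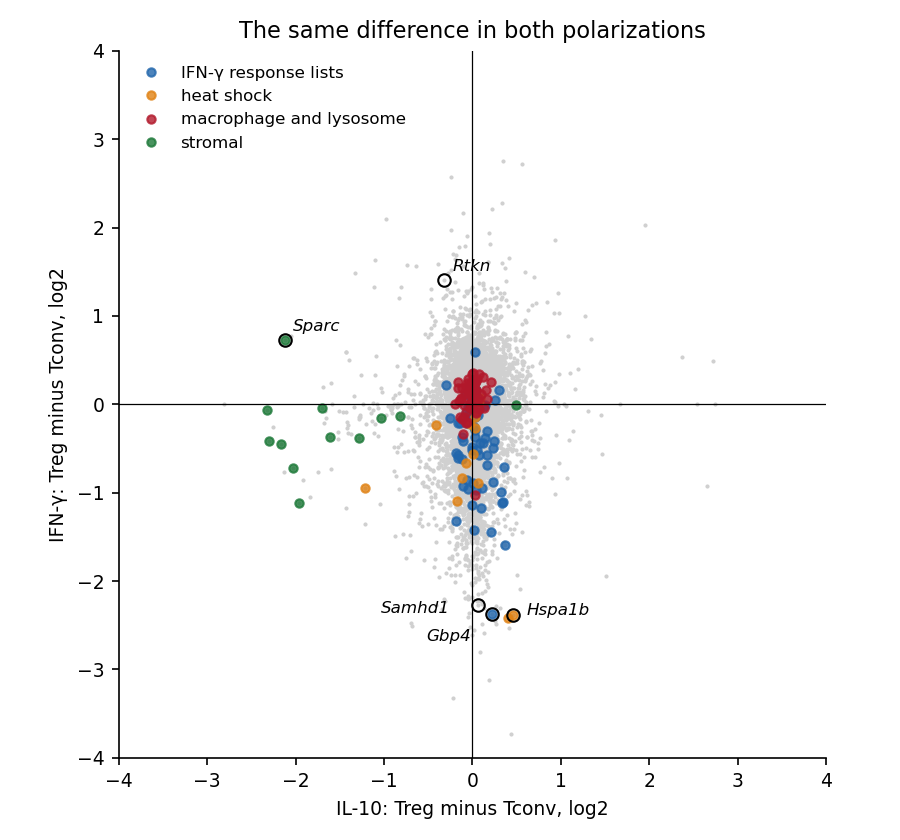
Each point is 1 of 12918 genes tested in both polarizations (2 lie outside the plotted range), with the log2 difference Treg minus Tconv in IL-10 on the x axis and in IFN-γ on the y axis; coloured points are members of the IFN-γ response, heat shock, macrophage and lysosome, and stromal lists. Samhd1, Gbp4 and Hspa1b lie below -2 on the IFN-γ axis and at or slightly above 0 in IL-10, and the stromal gene Sparc lies far to the left.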

How the data were processed

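Expression values were TPM per gene, 1 file per library, as deposited by the authors; per the submitters' processing notes STAR, RSEM and mm10 were used, with versions, annotation and strand setting not given in the sources used here. Per the labels' protocols, poly(A) RNA libraries were made with a directional kit. Symbols came from GENCODE vM21 (55227 of 55487 identifiers matched). TPM are not counts, so log2(TPM divided by a trimmed-mean scaling factor + 1) was fitted with limma 3.58.1 (R 4.3.3; trend, 30% of ratios and 5% of levels trimmed at each end) over the 8 libraries, for genes with at least 1 TPM in 4 of them, with Benjamini-Hochberg adjustment. The polarization difference was fitted over 16 libraries with a variance weight per group. Scripts were tested on simulated data. No library pair held identical values (378 pairs). Correlations across genes were 0.952 to 0.970 within groups and 0.936 to 0.954 between them.

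Genes were named by rule: the 10 largest called rises and falls without overlap at 5 TPM or more (predicted-gene, clone and pseudogene names left out), the 5 largest of each at 100 TPM or more, up to 4 called and 2 uncalled genes per list, a fixed set of IFN-γ, T cell and Treg genes, the 4 largest histone changes, and the 5 largest polarization differences in each direction by the first rule without its condition on overlap. Other list members named in the text were chosen after their values were seen. The comparison, the lists and the rules were chosen with earlier results of these data known. Alternatives covered scaling, pseudocount, filter, dye, pairing, GC content and length, and leaving out each library; whole reads were not recovered from TPM, and depth is an estimate from the spacing of low values. Promoter windows were RefSeq GRCm38.p6. Values of a few members of the lists are not reported here, though list counts and medians include them.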

Additional observations from a re-analysis of the deposited data

Results flagged for a closer look

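In 21 of 390 sets of 4 libraries 1 value lay apart from the other 3 by Dixon's test, about the share of 1 in 20 that chance brings. In the Treg group, library BV421-2 stood apart for Cxcl16 (186.17 TPM), Btg2 (31.35), Asb1 (9.33), Ccn1 (0.65), Gbp9 (5.74), Sirpa (478.02) and mt-Cytb (4156.61). Treg BV421-1 stood apart for Sdf2l1 (116.38 TPM) and Grn (1422.19), Treg Ax647-1 for Hspd1 (45.63) and Jak1 (60.55), and Treg Ax647-2 for Usp18 (12.94). In the Tconv group, Ax647-1 stood apart for Snd1 (85.22 TPM), Dnaja1 (120.81) and Insig1 (26.83). Tconv BV421-2 stood apart for Slc3a2 (283.53 TPM), Ifi30 (179.56) and Cd300lf (18.17), and by its mitochondrial share of 8.60% of TPM. Tconv BV421-1 stood apart for S100a9 (12.61 TPM) and Hist1h3e (4.49).

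The naming rule gave the 10 genes whose Treg-minus-Tconv change differed most between IFN-γ and IL-10, 5 in each direction. It leaves out predicted-gene and clone names. It also takes only genes that passed the interaction test, so that these genes passed was set by the choice. The change was more negative in IFN-γ for Hist1h2bg (-3.10), Hspa1b (-2.85), Hspa1a (-2.83), Gbp4 (-2.60) and Zmiz1os1 (-2.55). It was more positive in IFN-γ for Sparc (2.85), Rcn3 (1.89), Rtkn (1.73), Ccn1 (1.59) and Oplah (1.54). For Sparc, a matrix protein of stromal cells, the difference came with IL-10 levels of 5.99 TPM after Treg and 29.7 TPM after Tconv uptake, against 3.24 and 1.55 TPM in IFN-γ. Within IFN-γ, limma did not call Sparc, Rcn3 or Ccn1 (0.74, 0.51 and -0.05, adjusted p = 0.2289, 0.4496 and 0.9352). Their IL-10 changes were -2.13, -1.40 and -1.66. Rtkn and Oplah were called higher within IFN-γ (1.41 and 1.21), and the 5 genes with a negative difference were called lower.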

How the results depend on the processing

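Most alternatives left the 1684 calls within 1.5 times, from 1190 to 1667. A model over all 28 libraries called 4201 genes, requiring a log2 change of at least 1 left 358, and protein-coding genes without an annotated retained-intron transcript, chosen after seeing the data, gave 440 calls, 59.8% of them higher. Within 1 dye the counts were 3 (BV421) and 82 (Ax647). Leaving out 1 library gave 920 to 1476 calls and, for the difference between polarizations, 1161 to 1716. Without scaling 16.8% of calls were higher, against 38.7%. Of the named genes, only B2m (-0.1018, adjusted p = 0.04993) and H2-D1 (-0.0944, adjusted p = 0.04943) reversed, both without scaling. Same-numbered libraries did not deviate together across genes (correlations -0.02 to 0.04). This gave no sign that the numbers pair them, but it cannot exclude a shared culture or sort. A replicate block gave 1205 calls by the titles, 1349 by the library names and 1190 by the titles with GC and length correction. For the difference between polarizations it gave 1257. Of the 111 named genes called, 89 were also called without scaling, 77 to 100 when 1 library was left out, 11 within Ax647 and 0 within BV421. None kept its call in every alternative: 75 lost it in 1 to 3 and 36 in over 3. Mertk (lost in 8), Btg2 (15), Insig1 (16) and Trib3 (17) were among these 36. A count test was not run, since whole reads were not recovered from the TPM. At this depth 1 read on a transcript of 1 kb is worth up to 0.573 TPM, so values of low genes such as Ciita rest on few reads. Where a count moved, the cause was not tested, apart from the fewer genes or libraries that some alternatives hold.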

Other observations

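Of the 66 TEC and sense-intronic genes called lower, 52 lay inside a protein-coding gene on the same strand, and 50 distinct host genes were tested: 6 were called lower, 6 higher and 38 neither. Each direction thus held 12% of the hosts, against 8.61% lower and 5.44% higher of all tested genes. Gm37689, a TEC gene at chr4:6378018-6378292 inside Sdcbp, was listed at 0 in all 4 Treg libraries and averaged 36.1 TPM in the Tconv and 26.4 TPM in the non-phagocytic libraries, while Sdcbp itself rose by 0.28. Gm47920, inside Zmiz1, averaged 19.2 TPM after Treg and 76.0 TPM after Tconv uptake, and Zmiz1 was not called (-0.02). These examples were chosen after their values were seen.

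Stress genes of the endoplasmic reticulum did not follow the cytosolic heat shock genes. Hspa5, the chaperone BiP, rose by 0.32 (601 ± 23 to 697 ± 61 TPM), and Ddit3, Trib3 and Sdf2l1 by 0.38, 0.31 and 0.51. Of 20 tested genes 4 were called higher and none lower, or 1 and none without scaling. Immediate early genes moved in both directions: Ier2, Dusp1, Btg2 and Junb rose by 0.40, 0.33, 0.36 and 0.22, of which none was called without scaling, and Klf6 fell by 1.20, from 299 ± 42 to 119 ± 9 TPM.

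Calls also followed gene length and level. With the tested genes in 5 equal classes by transcript length, 11.4% of the longest were called lower and 1.55% higher, against 6.35% and 8.98% of the shortest. In the highest of 5 classes by level, 19.9% were called higher and 13.2% lower, against 0.751% and 5.76% in the lowest. The part of level and length in the counts of the macrophage, lysosomal, antioxidant and other lists was not tested.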
